A study of Mus musculus with 4 samples.

Results

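Genes of stratified epithelium differentiation, 10 in number, were followed on 4 expression arrays: Sprr1a, Sprr1b, Sprr3, Ivl, Krtdap, Dmkn, Sbsn, Trp63, Perp and Sfn. They were taken by name, as every probe set whose annotation holds that symbol and no other, which gave 10 of the 18193 genes named on the array and 16 of its 45101 probe sets. Each array held RNA of 1 tissue and genotype of newborn mice, labelled as postnatal day 0: FoxO6-/- jaw, wild type jaw, FoxO6-/- brain and wild type brain. Jaw here means mandible and maxilla tissue together. FoxO6 is a forkhead transcription factor, and in the mutant its coding region was replaced by a LacZ-Neo cassette, on a C57BL/6 background that the wild type animals share. The methods describe the jaw arrays as pools of 4 animals each, say that the mutants included heterozygotes as well as nulls, and give a late embryonic stage for the jaw tissue, where the labels give birth. No probe set was named Foxo6 in the annotation (0 probe sets), so the targeted gene could not be used to check which arrays were mutant.

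Stratified epithelia such as epidermis and the lining of the mouth renew from a basal layer, whose cells stop dividing, move outward and flatten. In the upper layers transglutaminases cross-link precursor proteins, among them involucrin (Ivl) and the small proline-rich proteins (Sprr), into the cornified envelope under the cell membrane. Keratinocyte differentiation associated protein (Krtdap), dermokine (Dmkn) and suprabasin (Sbsn) are secreted by suprabasal cells. The transcription factor p63 (Trp63) is required for stratified epithelia to form, Perp is a desmosome-associated membrane protein and a target of p53 and p63, and Sfn encodes 14-3-3 sigma, which is abundant in keratinocytes.

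The promoters are shown first, because the genes share short motifs there that the choice of genes did not use. RefSeq (build GRCm38.p6) gave a start for 8 of the 10 genes, Trp63 and Perp being the others. The 150 bases before each start were searched on both strands for the AP-1 motif TGANTCA and the TATA box TATAAA, which are the capitals in the 6 promoters printed here. TGANTCA reads the same on both strands, and no AP-1 match overlapped a TATA box. The 6 are 4 of the envelope precursors on chromosome 3 and 2 of the secreted peptides on chromosome 7.
Sprr1a, chr3:92485882-92486031, minus strand: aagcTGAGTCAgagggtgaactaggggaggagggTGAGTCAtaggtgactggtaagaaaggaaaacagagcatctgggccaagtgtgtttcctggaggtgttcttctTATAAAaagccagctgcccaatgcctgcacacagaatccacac
Sprr1b, chr3:92438780-92438929, minus strand: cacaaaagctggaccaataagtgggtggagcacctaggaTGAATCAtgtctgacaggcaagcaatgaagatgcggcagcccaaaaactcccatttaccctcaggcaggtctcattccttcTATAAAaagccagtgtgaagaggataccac
Sprr3, chr3:92458721-92458870, minus strand: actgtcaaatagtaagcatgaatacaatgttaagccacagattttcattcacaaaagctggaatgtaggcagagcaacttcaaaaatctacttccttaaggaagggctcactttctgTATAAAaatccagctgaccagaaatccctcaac
Ivl, chr3:92573736-92573885, minus strand: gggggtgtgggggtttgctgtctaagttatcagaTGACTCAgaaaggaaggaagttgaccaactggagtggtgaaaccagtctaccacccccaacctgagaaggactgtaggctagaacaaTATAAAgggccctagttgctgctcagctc
Dmkn, chr7:30763606-30763755, plus strand: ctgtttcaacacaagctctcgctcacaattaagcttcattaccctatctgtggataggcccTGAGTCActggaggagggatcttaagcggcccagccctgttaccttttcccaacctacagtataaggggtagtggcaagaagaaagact
Krtdap, chr7:30787755-30787904, plus strand: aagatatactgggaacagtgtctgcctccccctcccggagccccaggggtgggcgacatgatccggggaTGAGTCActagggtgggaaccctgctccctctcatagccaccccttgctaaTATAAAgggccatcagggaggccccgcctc

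The AP-1 motif was present before a start of 6 of the 8 genes, which is 75%, against 4.96% of the 27025 genes with an entry and 8.6% of the 605 such genes that limma called higher in jaw than in brain. It was found in precursors and secreted peptides alike. Its first base lay 146 and 116 bases before the start in Sprr1a, 116 in Ivl, 111 in Sprr1b, 119 in Sbsn and 81 in Krtdap. At the 3 annotated starts of Dmkn it lay 89, 91 and 82 bases before the start. No match was found in the windows of Sprr3 and Sfn. The TATA box was present in 5 of the 8 genes, or 62.5%, against 8.89% of all genes with an entry and 18.2% of those called higher in jaw, and it lay 29 to 43 bases before the start in Ivl, Krtdap, Sprr1b, Sprr3 and Sprr1a. A forkhead motif, GTAAACA, was in 0 of the 8 genes and in 2.01% of all genes. A match is a run of letters and was not measured as a binding site.

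**Figure D1:**
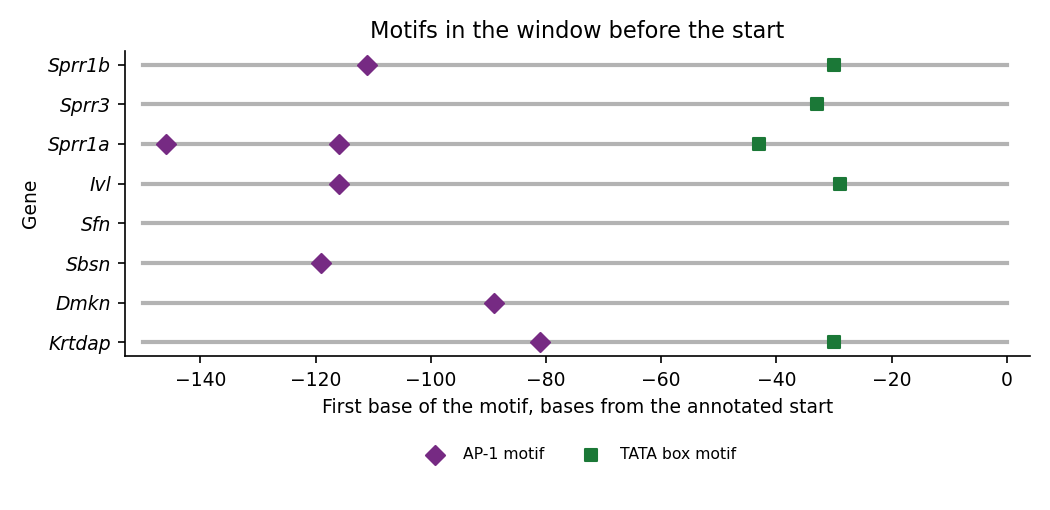
Position of the AP-1 motif and the TATA box in the 150 bases before an annotated start of the 8 genes with a promoter entry, as distance from the start in bases. Dmkn is shown at the first of its annotated starts only. The TATA boxes sit between 29 and 43 bases before the start, and the AP-1 motifs farther out, between 81 and 146 bases.

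The deposited signals were MAS5 intensities scaled so that the trimmed mean of every array was 500.003. The median of all signals, 101, served as the floor under which a probe set was treated as dim. The ratio of 3' to 5' signal for Actb, a measure of RNA integrity, was 3.37 on the FoxO6-/- jaw array and 2.21 to 2.23 on the other arrays, and for Gapdh it was 1.95 against 1.44 to 1.55. Nerve and brain genes marked the tissues: all 15 tested were lower in jaw and limma called 13 of them, beside 8.73% of all genes tested. Only 12 of the 15 had a mean jaw signal at or above the floor, and the others entered the fit through the brain arrays. The summed signal of the list was 5687 and 8583 on the jaw arrays and 67373 and 84396 on the brain arrays. The brain arrays also held signal of other tissues, among them 14898 and 11231 for the epidermal keratin Krt10 and summed skeletal muscle signals of 99509 and 119683 in FoxO6-/- and wild type. The label brain therefore does not describe all the RNA on these arrays.

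All 10 genes were far brighter in jaw than in brain. Both jaw arrays lay above both brain arrays for 10 of 10 genes, as they did for 36.4% of the 12569 genes tested, and for 8 of 10 the lowest jaw signal was at least 4-fold the highest brain signal (7 of 10 with dim signals raised to the floor, Sfn being the exception), against 1.66% of genes tested. In limma's fit with tissue and genotype all 10 were higher in jaw at an adjusted p under 0.05, beside 6.48% of all genes tested that were higher and 8.73% that were lower. For 4 of the 10 that call rests on dim brain signals. The 6 genes with every signal above the floor had adjusted p between 0.00859 and 0.0163 by limma. The calls need the floor: when dim genes were fitted too, limma called 0 of the 10, with adjusted p between 0.118 and 0.136. The median log2 difference was 2.93, and 2.91 with dim signals raised to the floor, where the median over all genes was 0.05. All 10 entered the fit, but 4 did so through the jaw arrays: both brain signals of Sprr1b, Sprr3 and Sfn and 1 of Sprr1a were below the floor, so that the brain level of these genes is known only as dim. The fitted differences of these 4 genes rest on those dim signals and are given without a p-value. In whole tissue, fewer cells of a type and less RNA per cell cannot be told apart.

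Among the envelope precursors Sprr3, Sprr1a and Ivl had the 3 largest differences of the 10. This holds for the brightest probe set of each gene with dim signals raised to the floor. Sprr3, which is abundant in oral and oesophageal epithelium, had signals of 7179 in FoxO6-/- jaw, 4178 in wild type jaw, 82.7 in FoxO6-/- brain and 55.3 in wild type brain. Both brain signals were dim, and the jaw mean was at least 54.4-fold that of brain, taken against the floor (fitted log2 difference 6.34 ± 0.16, SE). Sprr1a had 3363 and 2416 in FoxO6-/- and wild type jaw against 107 and 51.6 in the corresponding brains. The groups did not overlap, and the difference was at least 27.5-fold (fitted log2 5.26 ± 0.21, SE). Its close relative Sprr1b had 931 and 598 in jaw and 4.68 and 14.9 in brain, at least 7.41-fold (fitted log2 6.48 ± 0.64, SE). Sprr1b was bright in neither brain, and its estimate had the widest error of the 10. Sprr genes are similar in sequence, and a share of each signal may come from a relative. Ivl, the involucrin gene, had 3817 and 2567 in jaw and 411 and 233 in brain, a 10.1-fold difference (log2 3.34 ± 0.16, SE, adjusted p = 0.00859 by limma), with all 4 signals above the floor.

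**Figure D2:**
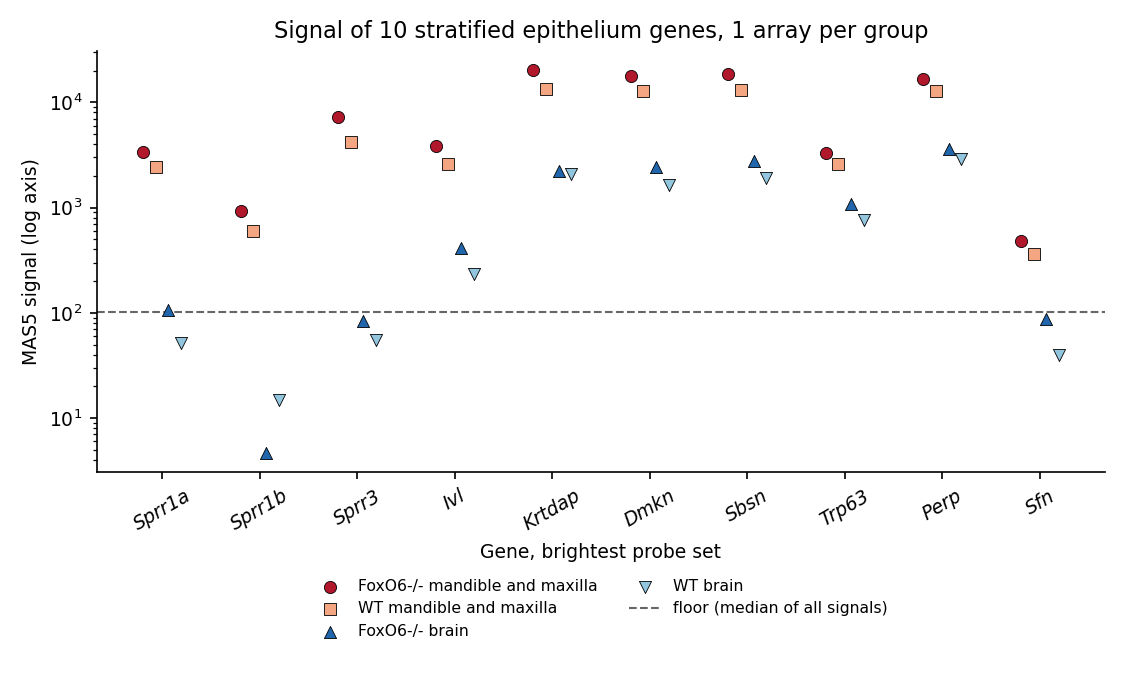
MAS5 signal of each gene's brightest probe set on the 4 arrays (log axis), 1 point per array and no error bar since each group is 1 array; the line marks the floor of 101. For every gene both jaw points lie above both brain points, and the FoxO6-/- jaw point lies above the wild type jaw point.

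The secreted peptides were well above the floor on all 4 arrays. Krtdap had 20278 in FoxO6-/- jaw, 13319 in wild type jaw, and 2224 and 2102 in FoxO6-/- and wild type brain, a 7.60-fold difference between tissues (log2 2.93 ± 0.20, SE). Dmkn had 17779.7 and 12866 in jaw and 2429 and 1625 in brain, or 7.61-fold (log2 2.93 ± 0.15, SE). Sbsn had 18679 and 12929.6 in jaw and 2774 and 1926 in brain, or 6.72-fold (log2 2.75 ± 0.15, SE). In all of them FoxO6-/- jaw was the brightest array, wild type jaw the next, and wild type brain the dimmest. The adjusted p of these 3 genes in limma was 0.0110, 0.00872 and 0.00905.

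Read by the brightest probe set of each gene, Trp63, the regulator, showed the smallest tissue difference of the 10. Its signals were 3297 and 2575 in FoxO6-/- and wild type jaw and 1083 and 767 in brain, 3.20-fold apart (log2 1.68 ± 0.15, SE, adjusted p = 0.0163 by limma). Neither brain signal reached the lower jaw signal. A second Trp63 probe set had a larger log2 difference, 2.79, against dim signals of 47.6 and 54.8 in FoxO6-/- and wild type brain. Perp, one of its targets, had 16730.3 and 12849 in jaw and 3586 and 2880.3 in brain, 4.56-fold apart (log2 2.19 ± 0.15, SE, adjusted p = 0.0106 by limma). Sfn was dim in brain at 87.5 and 39.7 and had 481 and 361 in jaw, at least 4.14-fold (fitted log2 2.82 ± 0.24, SE).

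Among the 6 genes with every signal above the floor, read by their brightest probe sets, Ivl had the largest log2 difference between jaw and brain. Dmkn, Krtdap and Sbsn followed with errors that overlapped one another, then Perp and last Trp63. Ivl, Perp and Trp63 were each apart from their neighbours by more than their errors. The order depended on the probe set, since another of Sbsn, above the floor on all 4 arrays, had 3.45. Second probe sets of Ivl and Trp63, dim in brain, had 6.38 and 2.79. The other 4 genes have only a lower bound, which on the log2 scale was 5.77 for Sprr3, 4.78 for Sprr1a, 2.89 for Sprr1b and 2.05 for Sfn, and they cannot be placed exactly in this order. With those bounds the median log2 difference was 4.06 for the envelope precursors, 2.93 for the secreted peptides and 2.12 for Perp and Sfn, while the fitted medians were 5.80, 2.93 and 2.51. The difference was also present within each genotype for the 6 genes above the floor: between the FoxO6-/- arrays it ran from 1.61 for Trp63 to 3.21 for Ivl, and between the wild type arrays from 1.75 for Trp63 to 3.46 for Ivl.

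**Figure D3:**
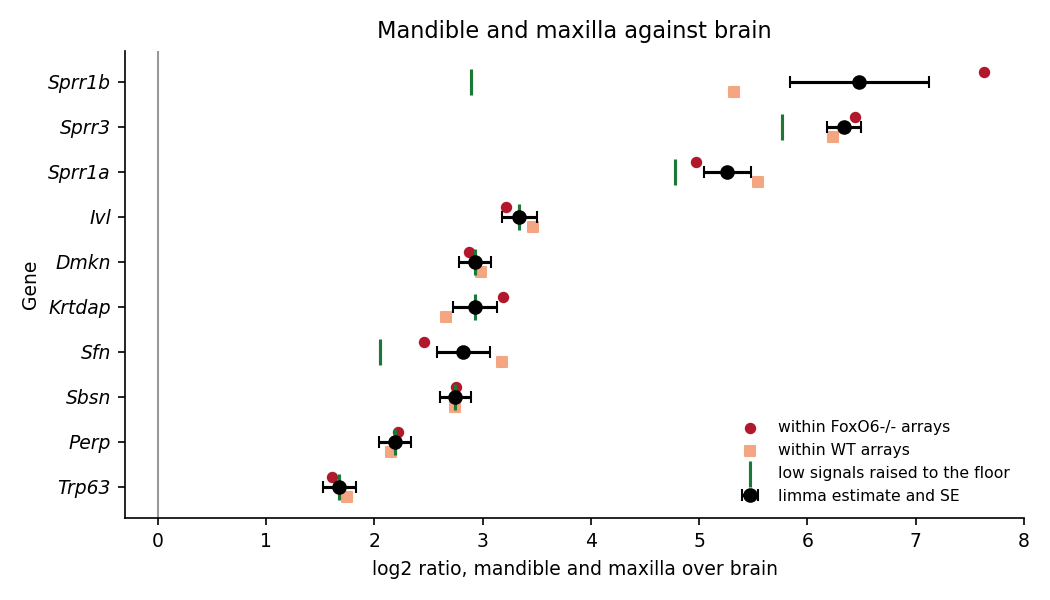
Log2 difference in signal, jaw minus brain, for the 10 genes: the limma estimate over both genotypes with its SE, and the difference within FoxO6-/- and within wild type arrays. A further mark gives the difference with low signals raised to the floor. All values lie above 0, from 1.61 for Trp63 within FoxO6-/- upward. Those of Sprr1a, Sprr1b, Sprr3 and Sfn are set against brain signals below the floor on 1 or both arrays and give no exact size, and Sprr1b has the widest spread (7.63 and 5.33).

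The array labelled FoxO6-/- jaw was then compared with that of wild type jaw, the tissue where these genes are bright. Each group is 1 array, so the comparison has no replicate check and no test. According to the methods the mutants included heterozygotes. The ratio of 3' to 5' signal also differed between these arrays, at 3.37 in FoxO6-/- against 2.23 for Actb and 1.95 against 1.44 for Gapdh. Its part in the ratios below was not tested. All 10 genes had the higher signal in FoxO6-/- jaw, where 48.7% of the 12186 genes compared did, with log2 ratios between 0.36 and 0.78 and a median of 0.50, against a median of -0.01 over all genes. A ratio as large as the lowest of the 10 was found in 10.3% of all genes. None of the 10 (0 genes) reached 2-fold, which 0.591% of all genes did upward and 1.69% downward.

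Among the envelope precursors Sprr3 had the largest ratio of the 10, 1.72-fold (log2 0.78), followed by Sprr1b at 1.56-fold (0.64), Ivl at 1.49-fold (0.57) and Sprr1a at 1.39-fold (0.48). The secreted peptides had ratios of 1.52-fold for Krtdap (0.61), 1.44-fold for Sbsn (0.53) and 1.38-fold for Dmkn (0.47). Trp63 had the smallest ratio, 1.28-fold (0.36), next to 1.30-fold for Perp (0.38) and 1.33-fold for Sfn (0.42). Trp63, Perp and Sfn held the lowest ratios, and Sprr3 and Sprr1b the highest. The median log2 ratios by role were 0.60 for the precursors, 0.53 for the secreted peptides and 0.40 for Perp and Sfn. As a scale for these numbers, the jaw ratios of the 2 brightest probe sets of a gene differed with an SD of 0.415 on the log2 scale over 4927 genes, and lay on the same side of 0 in 61.0% of them. Among the 10 ratios, that of Sprr3 and that of Trp63 were the only pair farther apart than this SD.

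Ivl, Sbsn and Trp63 are read by more than 1 probe set. A second Ivl probe set, dim in brain, had 387 in FoxO6-/- jaw and 306 in wild type jaw (log2 0.34). The other 2 Sbsn probe sets had 17246 against 10836 (log2 0.67) and 3067 against 2079 (log2 0.56), and the former is of a type that can share probes with other transcripts. A second Trp63 probe set had 394 against 319 (log2 0.31). The remaining 2 Trp63 probe sets were below the floor on every array, with 69.3 against 48.6 and 3.58 against 34.1 in jaw, and give no usable ratio. Of the 14 probe sets above the floor all were thus higher in FoxO6-/- jaw.

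**Figure D4:**
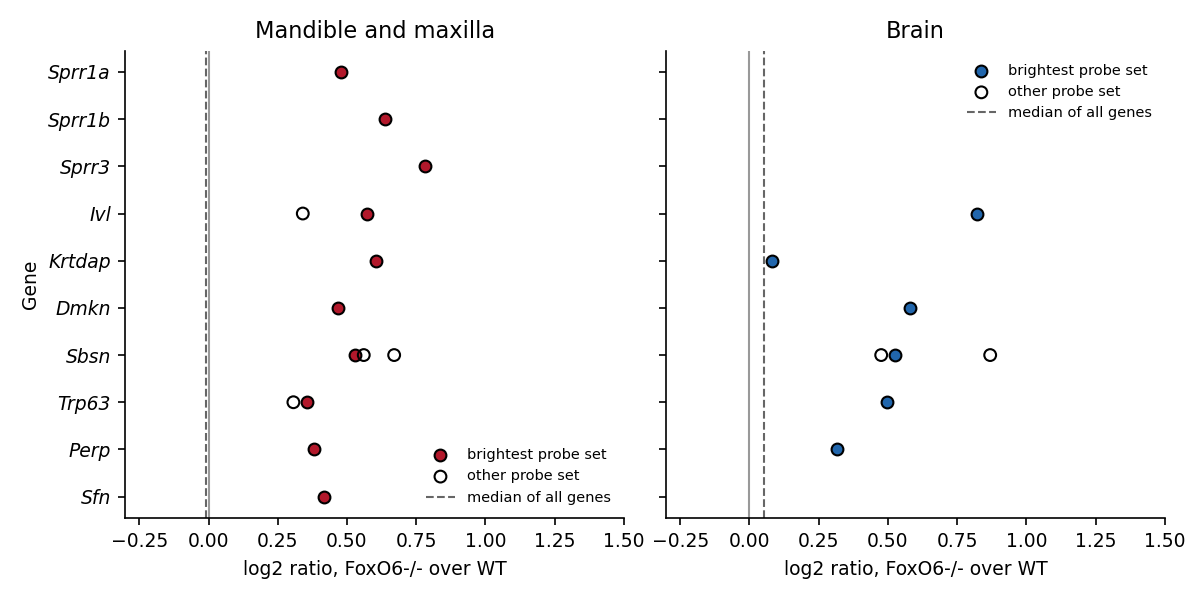
Log2 ratio of signal, FoxO6-/- over wild type, in jaw and in brain for the 10 genes. Filled marks are the brightest probe set of a gene and open marks its further probe sets. Each group is 1 array, so there are no error bars. For the brightest probe sets jaw ratios run from 0.36 to 0.78. Their brain ratios run from 0.08 to 0.82 in the 6 genes whose mean brain signal reached the floor.

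In brain, 6 of the 10 genes were bright enough to compare, namely Ivl, Krtdap, Dmkn, Sbsn, Trp63 and Perp. All 6 were higher on the FoxO6-/- array, as were 57.3% of the 12327 genes compared, with a median log2 ratio of 0.51 against 0.05 over all genes, and 0 reached 2-fold, which 1.13% of all genes did upward. Ivl had the largest ratio, 1.77-fold (log2 0.82), and Krtdap the smallest, 1.06-fold (0.08). Dmkn had 1.49-fold (0.58), Sbsn 1.44-fold (0.53), Trp63 1.41-fold (0.50) and Perp 1.24-fold (0.32). These 6 genes were therefore higher in FoxO6-/- in both tissues, as 28.8% of the 11494 genes compared in both were. For Sbsn the ratios in jaw and brain were alike to the second decimal, whereas that of Krtdap was larger in jaw. Whether the ratio differs between tissues was not tested, since each is a ratio of 2 arrays.

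With the tissues standing in for replicates, limma's genotype term called 0 of the 10 genes, with adjusted p between 0.902 and 0.916, and 0 of all 12569 genes (0.0%). At an unadjusted p under 0.05, 6 of the 10 genes and 588 genes in all passed, 2.26% of all genes being higher in FoxO6-/- at that limit. These were Sprr3 (log2 0.68), Ivl (0.70), Sbsn (0.53), Sprr1a (0.76), Dmkn (0.52) and Sfn (0.78). Sprr3 and Sfn, and Sprr1a in part, rest there on dim brain signals. An exact permutation test over 2 arrays against 2 cannot give a p below 0.333.

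The wider program of stratified epithelium was set beside the 10 genes with lists of related genes. Over all genes compared in jaw, 48.7% were higher in FoxO6-/- and 0.591% reached 2-fold upward. Among 29 further cornified envelope genes compared in jaw, 28 were higher in FoxO6-/- with a median log2 ratio of 0.64, and 2 reached 2-fold. The highest were Sprr2h, a relative of the Sprr genes (259 against 109, log2 1.25), and Ly6g6c (1733 against 862, log2 1.01), and the lowest were Lce3b, a late envelope gene (-0.03), and filaggrin, Flg (0.21). In the fit of jaw against brain limma called 26 of 26 tested genes of this list higher in jaw, beside 6.48% of all genes tested. Their median log2 difference was 3.18 (3.03 with dim signals raised to the floor). Only 20 of the 26 had a mean brain signal at or above the floor, and the others entered the fit through the jaw arrays. Of 21 genes for crosslinking enzymes, proteases and their inhibitors 16 were higher in FoxO6-/- jaw, with a median of 0.55, led by the protease inhibitor Slpi (3485 against 1451, log2 1.26) and its relative Wfdc12 (203 against 85.7, log2 1.24), which was dim in wild type jaw. Casp14, a protease of cornification, was at -0.19 and Prss8 at -0.14. In jaw against brain 19 of 20 of this list were higher in jaw, 18 of them called by limma. Of these 20 genes, 13 had a mean brain signal at or above the floor, and the others entered the fit through the jaw arrays.

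Keratins of the suprabasal layers were mostly higher in the same comparison, in which 48.7% of all genes compared were higher in FoxO6-/- jaw. Of 12 compared, 10 were higher in FoxO6-/- jaw (median log2 0.40), with Krt78 and Krt16 both at 0.78 and with Krt2 at -0.77 (165 against 282) and Krt77 at -0.29. The epidermal keratins Krt1 (0.48) and Krt10 (0.46) were among the higher ones. In jaw against brain 12 of 12 were higher in jaw and limma called 11, beside 6.48% of all genes tested. The exception was Krt2 (adjusted p = 0.0746 by limma). Only 8 of the 12 had a mean brain signal at or above the floor. The others, Krt2 among them, were dim in brain and entered the fit through the jaw arrays. The basal layer list had 8 of 12 higher in FoxO6-/- jaw with a median of 0.32, from Krt14 (0.74) and Krt15 (0.49) to Itgb4 (-0.22) and Dst (-0.20).

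Lists of junction, lipid and regulatory genes were compared in the same way, beside 48.7% of all genes compared that were higher in FoxO6-/- jaw. The desmosome and adhesion list had 9 of 14 higher in FoxO6-/- jaw with a median log2 ratio of 0.12, from Jup, plakoglobin (0.89), to Cldn4, a tight junction protein (-0.37). The barrier lipid list had 8 of 11 (median 0.25), from Lipk (0.81) to Alox12b, a lipoxygenase of the epidermal barrier (-0.32). Epidermal transcription factors had 13 of 21 (median 0.04), with Barx2 (0.98) and Ovol1 (0.73) at one end and Elf5 (-0.59) and Tfap2b (-0.55) at the other. The list of p53 family members, their targets and Notch genes had 9 of 14 (median 0.03), from Trp73 (0.46) to Mdm2, the ubiquitin ligase of p53 (-0.43). In jaw against brain limma called 14 of 20 transcription factors higher in jaw, where 19 had the higher signal. It called 3 of 14 genes of the p53 and Notch list, where 12 had the higher signal. Of all 12569 genes tested 6.48% were called higher in jaw, and 6878 had the higher signal. Mean brain signals reached the floor for 17 of the 20 and 13 of the 14, and the rest entered the fit through the jaw arrays.

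**Figure D5:**
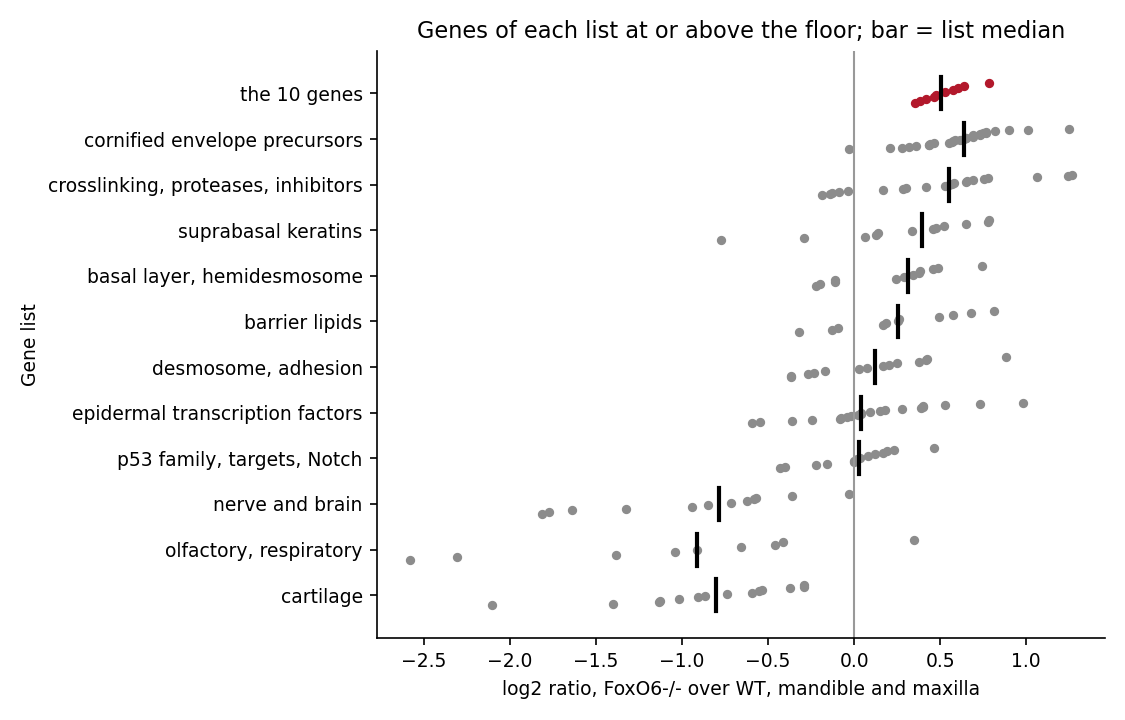
Log2 ratio of signal, FoxO6-/- over wild type jaw, for each gene of the lists shown (points), with a bar at the median of each list and a line at 0. Each group is 1 array. The cornified envelope list has its median at 0.64 and the 10 genes at 0.50, while nerve, cartilage and olfactory lists have medians of -0.78, -0.80 and -0.91.

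Lists of other cell types moved between the same 2 jaw arrays, and their part in the ratios of the 10 genes was not tested. Of all genes compared there, 48.7% were higher in FoxO6-/- jaw. In FoxO6-/- jaw 0 of 12 nerve and brain genes were higher (median log2 ratio -0.78), with summed signals of 5687 and 8583 in FoxO6-/- and wild type jaw. The same was found for 0 of 14 cartilage genes (median -0.80, summed signals 37988 and 59751) and 1 of 9 olfactory and respiratory genes (median -0.91, summed signals 11654 and 22602). Matn1, a cartilage matrix protein, had 383 against 1644, and Gng13, an olfactory G protein subunit, 114 against 682. In brain the order was the reverse: 14 of 14 cartilage genes (median 0.76), 7 of 8 olfactory and respiratory genes (0.55) and 15 of 15 nerve genes (0.34) had the higher signal in FoxO6-/-. So did 57.3% of all genes compared in brain. No marker of these lists was listed at 0 on any array, which does not mean that each was detected. Cnga2 was at 1.30 in wild type brain and Gfap at 9.54 in wild type jaw, far below the floor.

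The 5 genes whose signals over the 4 arrays lay nearest to the median profile of the 10, with dim values raised to the floor, were Lce1a2, Lce1i, Calm4, Lypd3 and Dsc1, at Euclidean distances of 0.0632, 0.0649, 0.0854, 0.0884 and 0.117 on the log2 scale. Lce1a2 had 11054 and 7514 in jaw and 1444 and 1096 in brain. Of the 10 themselves Sbsn lay nearest to their median profile (0.158) and Sprr3 farthest (2.95). Lce genes encode late cornified envelope proteins and Dsc1 a desmosomal cadherin of upper layers.

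The 7 genes on chromosomes 3 and 7 lie in 2 clusters. Sprr1b, Sprr3, Sprr1a and Ivl follow one another in the gene order with Sprr4 between the last pair, and the nearest neighbours that could be compared in jaw were Sprr2h (log2 ratio 1.25) and Lce1a1 (0.57), both higher in FoxO6-/-. Sbsn, Dmkn and Krtdap are adjacent. The only gene outside this trio that could be compared was Tmem147, which is broadly expressed, with 3032 in FoxO6-/- and 3004 in wild type jaw (log2 0.01) and no call between jaw and brain (log2 -0.15, adjusted p = 0.632 by limma).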

How the data were processed

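RNA of 4 tissues by genotype was hybridised to Affymetrix Mouse 430 2.0 arrays, 1 array per group. The authors deposited MAS5 signal intensity values on a linear scale, which were used as deposited and taken to log2. MAS5 background handling makes ratios of dim probe sets unstable. Probe sets were named through the platform annotation, leaving out 64 controls and 932 that name several genes. Each gene was read by its brightest probe set. Genes entered a comparison when their mean signal over the arrays compared reached the floor, the median of all signals (101). Jaw was compared with brain by limma 3.58.1 in R 4.3.3 (tissue and genotype, 1 residual degree of freedom, Benjamini-Hochberg over 12569 genes), a procedure tested on simulated data. With 1 array per group, genotype within a tissue has ratios only. From each list the 2 highest and 2 lowest jaw ratios could be named. The genes and the 17 lists were chosen with earlier results of these data known. Alternatives varied scaling, floor, probe set choice, variance model, covariates and left out each array. The number of arrays limits precision. With 1 residual degree of freedom, limma's errors and p-values draw largely on a variance pooled over all genes (2.40 prior degrees of freedom). The rest is how far the tissue difference varied between genotypes on these arrays. Spread between replicates is not measured, since there are none.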

Additional observations from a re-analysis of the deposited data

How the results depend on the processing

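The call of all 10 genes higher in jaw than in brain depended on the filter. Only 6 of them had both brain signals at or above the floor. With no floor limma called 0 of 10 and 0 of 18193 genes (smallest adjusted p = 0.118), although all 10 passed an unadjusted p under 0.05, as 3824 genes did. The cause was not tested. The other alternatives kept every fitted gene called, including each array left out in turn (10 to 10 genes, largest adjusted p 0.0451 without the wild type brain array by limma), 8 of 8 genes when the floor was raised to the upper quartile of signals (524) and 9 of 9 when a gene's probe sets were averaged. All genes called numbered 1911 as reported, 2733 with low signals raised to the floor, 2916 with a variance trend, 2707 without the genotype term, 1125 with probe sets averaged and 2694 over single probe sets. In jaw the 10 ratios stayed above 0 except with probe sets averaged (9 of 10, Trp63 at -0.52 through its dim probe sets), and their median ran from 0.39 to 0.64. Median centring moved the median of all genes by over 0.1, to 0.13 in jaw and 0.20 in brain, where the 10 genes then had 0.64 and 0.66, and raised the share of genes higher in FoxO6-/- to 66.2% in jaw and 73.9% in brain. In brain with no floor 9 of 10 genes were higher, Sprr1b being at -1.67 between dim signals. The genotype term called 0 of 10 genes under every alternative run. Jaw and brain were already compared within genotype through the genotype term, and the labels give no replicate numbers for a further block.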

Other observations

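Other epithelial and mesenchymal lists, not described above, are given as values. Of all genes compared, 48.7% were higher in FoxO6-/- in jaw and 57.3% in brain. The enamel epithelium genes were dim on both brain arrays, so the 6 tested entered the fit only through the jaw arrays. In that fit 6 of 6 were called higher in jaw by limma, beside 6.48% of all genes tested. Their median log2 difference was 6.03, and 2.32 with dim signals raised to the floor. In FoxO6-/- jaw 6 of 6 had the higher signal (median log2 ratio 0.52). Enam, an enamel matrix protein, was at 458 against 172 and Amtn at 612 against 233. Of 14 hair follicle genes 12 were higher in FoxO6-/- jaw (median 0.21), from Krt86, a hair keratin (952 against 442, log2 1.11), to Msx2 (-0.25), and 9 of 9 were higher in FoxO6-/- brain (median 0.95). Bone genes had 7 of 9 higher in FoxO6-/- jaw (median 0.23) and endothelial genes 6 of 9 (0.20). Skeletal muscle genes had 7 of 13 in jaw (median 0.02) and 1 of 13 in brain (-0.28). Of the salivary and secretory list 7 of 7 genes had the lower signal in jaw. Of these limma called 4, beside 8.73% of all genes tested that were lower. The 4 include Smgc, Prol1 and Pip, which were dim on both jaw arrays and entered the fit through the brain arrays.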
